A study of Mus musculus with 12 samples.

Results

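The dual-specificity MAPK phosphatases (DUSPs) were followed through a *Dusp4* silencing experiment in mouse hepatocellular carcinoma (HCC) cells. The family was taken by name, as the rows *Dusp2*, *Dusp4*, *Dusp5*, *Dusp6*, *Dusp8* and *Dusp10*, which are 6 of the 770 gene probes of the NanoString® Mouse PanCancer Pathways panel. The experiment holds 12 samples in 4 groups of 3 biological replicates. The parent line, AKT/NRAS, comes from a mouse liver tumour. Its oncogenes, a myristoylated AKT flanked by loxP sites and a mutant NRAS, had been delivered to the liver by hydrodynamic injection into the tail vein. AKT Cre/NRAS cells are the same line after transfection of Cre recombinase, which removed AKT and left NRAS, so that all 4 groups carried mutant NRAS. Each line received either a pool of *Dusp4* siRNA (the siRNA groups) or a negative control pool (the SCR groups), and was transfected a second time before harvest. Both lines therefore go back to 1 tumour, and whether the Cre derivative is a clone is not given in the sources used here. The comparisons were siRNA against SCR within each line, the Cre derivative against its parent under SCR and under siRNA, and the interaction, which is the siRNA difference in AKT Cre/NRAS minus that in AKT/NRAS.

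DUSPs remove phosphate from both the threonine and the tyrosine of the activation loop of mitogen-activated protein kinases (MAPKs) and so switch these kinases off. Several of them are themselves transcribed in response to ERK activity, which makes them part of a negative feedback loop downstream of RAS. DUSP4 and DUSP2 are inducible nuclear phosphatases that act on ERK and other MAPKs, DUSP5 is a nuclear and DUSP6 a cytoplasmic phosphatase with a strong preference for ERK, and DUSP8 and DUSP10 act mainly on the stress kinases JNK and p38.

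A normalized count here is the deposited signal scaled to 15 reference genes, and a value at the floor of 27.1 normalized counts was not measured above it. The sum of the barcode counts recovered above the floor ranged from 641790 to 1081646 per sample, and 252 to 293 of the 770 genes per sample stood at the floor. *Akt1*, which checks the labels of the lines, was at 19831 ± 507 (SD, n = 3) normalized counts in AKT/NRAS SCR and at 388 ± 47.9 in AKT Cre/NRAS SCR. The hepatocyte markers *Cebpa* (391 to 779 normalized counts) and *Ghr* (39.6 to 791) were above the floor in all 12 samples. Biliary and progenitor markers (3 of 4 above the floor in some sample, chiefly *Spp1*) moved with the line, with sums of 15348 to 19932 normalized counts in AKT/NRAS and 101972 to 161827 in AKT Cre/NRAS. So did stellate cell markers (2 of 5, chiefly *Pdgfra*), with sums of 60.7 to 104 and 269 to 513, while *Col1a2*, *Col3a1* and *Pdgfrb* were at the floor. Of the endothelial markers *Kdr* was at the floor and *Flt1* was at 933 to 1403 in AKT/NRAS and 239 to 495 in AKT Cre/NRAS. The 3 leukocyte markers were at the floor in all samples. The AKT Cre/NRAS SCR samples stood apart from each other in the log2 ratio of *Rpl19* to *Polr2a*, which ranged from 5.48 to 6.88 there, from 4.72 to 5.03 in AKT Cre/NRAS siRNA and from 3.81 to 3.92 in AKT/NRAS. The part of these markers and of this spread in the results was not tested. In bulk RNA, a lower level per cell and fewer cells that express a gene cannot be told apart.

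The 300 bases around the annotated start (250 before it and 50 from it on, RefSeq, GRCm38.p6) are shown for the 4 measured members with an entry, because these members moved in different directions between the lines. Capitals mark matches to 1 of 4 motifs that were searched on both strands in 32851 such windows. These were TGANTCA (AP-1, in 7.81% of windows), TGACGTCA (the cAMP response element, CRE, 1.79%), CCGGAAGT (ETS, 3.89%) and the CArG box (serum response factor, 1.63%). None of the motifs contains another.
*Dusp5*, chr19:53528895-53529194, plus strand: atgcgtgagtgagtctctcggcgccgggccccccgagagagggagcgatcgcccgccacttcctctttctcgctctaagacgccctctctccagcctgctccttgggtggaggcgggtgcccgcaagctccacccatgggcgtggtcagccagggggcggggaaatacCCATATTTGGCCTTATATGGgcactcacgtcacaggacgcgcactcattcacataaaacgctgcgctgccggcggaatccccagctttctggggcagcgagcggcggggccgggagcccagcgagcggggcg
*Dusp6*, chr10:99262981-99263280, plus strand: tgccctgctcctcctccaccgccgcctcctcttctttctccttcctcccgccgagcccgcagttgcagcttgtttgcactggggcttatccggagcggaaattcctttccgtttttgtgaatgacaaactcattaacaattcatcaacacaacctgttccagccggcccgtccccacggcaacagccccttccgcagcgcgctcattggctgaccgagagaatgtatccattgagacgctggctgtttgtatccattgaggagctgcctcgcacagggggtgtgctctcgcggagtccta
*Dusp10*, chr1:184034131-184034430, plus strand: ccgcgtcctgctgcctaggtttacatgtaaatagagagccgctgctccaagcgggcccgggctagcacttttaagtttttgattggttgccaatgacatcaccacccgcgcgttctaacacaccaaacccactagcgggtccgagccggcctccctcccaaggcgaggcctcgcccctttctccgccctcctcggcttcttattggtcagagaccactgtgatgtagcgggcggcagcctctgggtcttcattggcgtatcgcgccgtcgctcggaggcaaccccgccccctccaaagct
*Dusp8*, chr7:142095235-142095534, minus strand: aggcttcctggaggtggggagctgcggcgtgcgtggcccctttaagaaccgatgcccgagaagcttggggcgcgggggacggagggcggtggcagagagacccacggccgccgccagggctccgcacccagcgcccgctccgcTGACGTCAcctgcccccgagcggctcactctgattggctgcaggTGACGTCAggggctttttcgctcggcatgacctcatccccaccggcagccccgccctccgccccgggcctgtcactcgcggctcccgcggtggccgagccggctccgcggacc
The *Dusp5* window holds 2 CArG boxes next to each other, whose first bases lie 82 and 72 bases before the start. The *Dusp8* window holds 2 CRE matches, with first bases 107 and 63 bases before the start. None of the 4 motifs, as spelled here, was found in the *Dusp6*, *Dusp10* or *Dusp2* windows. Of the shown members higher in AKT Cre/NRAS, *Dusp5* thus had matches and *Dusp6* had none. Of the lower ones, *Dusp8* had matches and *Dusp10* had none. A link between the motifs and these directions was not tested. G and C made up 66.7% of the *Dusp5*, 57.3% of the *Dusp6*, 61% of the *Dusp10* and 73.3% of the *Dusp8* window, with a median of 52.7% over all windows. The *Dusp8* window lies inside the annotated gene (chr7:142079487-142095907), so it belongs to a start downstream of the outermost one. *Dusp4* lies at chr8:34807610-34819894 of the same build.

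**Figure D1:**
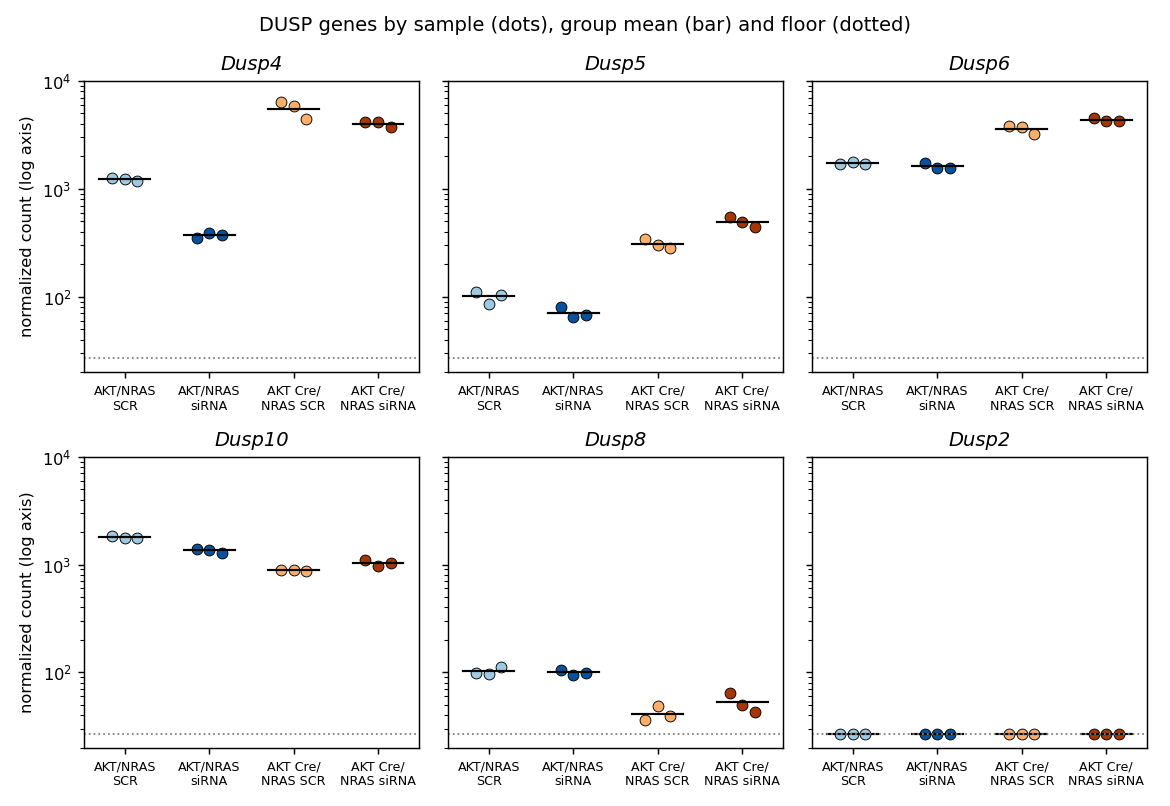
Normalized counts of the 6 DUSP genes (y axis, log scale) in each of the 12 samples (dots) of the 4 groups (x axis), with the mean of each group (bar) and the floor of 27.1 (dotted line). *Dusp4*, *Dusp5* and *Dusp6* are higher in every AKT Cre/NRAS sample than in any AKT/NRAS sample, *Dusp10* and *Dusp8* are lower, and *Dusp2* is at the floor throughout.

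*Dusp4*, the gene targeted by the siRNA, was at 1273, 1226 and 1186 normalized counts in the AKT/NRAS SCR samples and at 350.2, 389 and 371 after silencing. The groups were far apart, and the siRNA samples kept 30.2% of the SCR level. On the log2 scale *Dusp4* fell by 1.73 (SE 0.05, adjusted p = 1.13e-06), the largest fall among the 496 genes tested in this line, and it fell under each of the 8 scalings tried, by 1.39 to 1.76. In AKT Cre/NRAS, *Dusp4* stood at 6343, 5843 and 4483 normalized counts under SCR and at 4126, 4174 and 3769 after silencing. The groups did not overlap here either, but the siRNA samples kept 73.1% of the SCR level and the SCR samples spread over a range wider than the gap to the siRNA samples. The fall of 0.45 on the log2 scale (SE 0.12, adjusted p = 0.0178) passed the threshold and stood at place 20 from the lowest of 503 genes. It did not hold under every choice of reference genes. With the 10 reference genes ranked first the difference was -0.27 (adjusted p = 0.205), with the 5 ranked first it was 0.00098 (adjusted p = 0.997), and with the values as deposited it was -0.54 (adjusted p = 0.37), while the other 4 scalings gave -0.81 to -0.52 and passed. The call was also lost without SCR replicate 2 (adjusted p = 0.0677), without siRNA replicate 1 (0.0596) and without siRNA replicate 3 (0.0674). It was kept without SCR replicate 1 (adjusted p = 0.0279) and without siRNA replicate 2 (0.0458). Without SCR replicate 3, the lowest SCR sample at 4483, the difference was -0.60 (adjusted p = 4.42e-06).

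Between the lines *Dusp4* was higher in AKT Cre/NRAS, by 2.16 on the log2 scale under SCR (SE 0.12, adjusted p = 8.98e-07) and by 3.44 after silencing (SE 0.06, adjusted p = 5.79e-09). The lowest AKT Cre/NRAS siRNA sample, at 3769 normalized counts, lay above the highest AKT/NRAS SCR sample at 1273, so the silenced AKT Cre/NRAS cells held more *Dusp4* RNA than the control cells of the parent line. The siRNA difference itself differed between the lines, with an interaction of 1.28 (SE 0.15, adjusted p = 0.000728), the highest of 525 genes. This difference was positive under all 7 scalings that apply to it (0.85 to 1.76) and passed under 6, the exception being the values as deposited. The position of the probe relative to the sites of the siRNA pool is not given in the sources used here.

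*Dusp5*, which encodes the nuclear ERK phosphatase, was higher in AKT Cre/NRAS like *Dusp4*, and after silencing it fell in AKT/NRAS and rose in AKT Cre/NRAS. It stood at 111, 85.8 and 104 normalized counts in AKT/NRAS SCR and at 80.3, 64.4 and 66.9 in AKT/NRAS siRNA, so it was lower in every silenced sample. These values rest on 69 to 115 barcode counts per sample. In AKT Cre/NRAS it stood at 343, 304 and 283 under SCR and at 548, 492 and 442 after silencing, so it was higher in every silenced sample. The log2 difference was 0.67 in AKT Cre/NRAS (SE 0.12, adjusted p = 0.00355) and -0.50 in AKT/NRAS (SE 0.13, adjusted p = 0.0345), both without overlap of the groups. In AKT Cre/NRAS the difference was positive under all 8 scalings (0.32 to 1.12) and passed under all except the values as deposited, and it passed with each library left out in turn, but not in a linear model of each gene by itself (adjusted p = 0.0635). In AKT/NRAS it was negative under all 8 scalings (-0.54 to -0.17) and passed under the same 7, but the call was lost without SCR replicate 1 (adjusted p = 0.107) or replicate 3 (0.085) and without siRNA replicate 2 (0.0585) or replicate 3 (0.107). It was also lost without a filter on low values (adjusted p = 0.123), with Benjamini-Yekutieli adjustment (0.234) and in the linear model of each gene by itself (0.142). The interaction was 1.17 (SE 0.18, adjusted p = 0.00158), the second highest of 525 genes. *Dusp5* was higher in AKT Cre/NRAS by 1.62 under SCR (adjusted p = 7.04e-06) and by 2.79 under siRNA (adjusted p = 4.81e-07).

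*Dusp2*, which encodes another nuclear phosphatase, stood at the floor in all 12 samples, so only an upper bound is known for it and it entered no test.

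*Dusp6* encodes the cytoplasmic ERK phosphatase. Its level was 1712, 1766 and 1682 normalized counts in AKT/NRAS SCR and 1740, 1577 and 1561 in AKT/NRAS siRNA, with overlapping groups (log2 difference -0.08, SE 0.05, adjusted p = 0.291). Without siRNA replicate 1 that difference became -0.13 and passed the threshold (adjusted p = 0.0428). In AKT Cre/NRAS it was 3807, 3711 and 3199 under SCR and 4584, 4261 and 4243 after silencing, with every silenced sample above every SCR sample. That log2 difference of 0.29 (SE 0.09, adjusted p = 0.0294) passed under 3 of 8 scalings, ranged from -0.06 with each sample re-centred on its median to 0.74, and was lost without SCR replicate 2 (adjusted p = 0.0674) or any 1 of the 3 siRNA replicates (0.0715 to 0.116). The line difference was larger, at 1.05 under SCR (adjusted p = 7.01e-06) and 1.42 under siRNA (adjusted p = 2.81e-07), passing under 6 and under all 8 scalings. The interaction of 0.37 (SE 0.10, adjusted p = 0.0121) changed sign under 2 of 7 scalings.

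*Dusp10* and *Dusp8*, the phosphatases of the stress kinases, ran the other way between the lines. *Dusp10* was at 1832, 1767 and 1775 normalized counts in AKT/NRAS SCR and at 893, 896 and 871 in AKT Cre/NRAS SCR, a log2 difference of -1.01 (SE 0.06, adjusted p = 1.64e-06). With the values as deposited this difference was -0.51 and did not pass (adjusted p = 0.0942). After silencing it was at 1404, 1368 and 1278 in AKT/NRAS and at 1091, 979.9 and 1039 in AKT Cre/NRAS, so the lines stood closer together (-0.38, SE 0.05, adjusted p = 0.000439). Within AKT/NRAS the silenced samples all lay below the SCR samples, by 0.41 on the log2 scale (SE 0.04, adjusted p = 0.00161, rank 5 by p of 496 genes), and within AKT Cre/NRAS they all lay above them, by 0.22 (SE 0.08, adjusted p = 0.0487). The fall in AKT/NRAS was seen under all 8 scalings (-0.45 to -0.07) and passed under 7, the exception being the values as deposited. The rise in AKT Cre/NRAS passed under 3 of 8 scalings, ranged from -0.13 to 0.68, and was lost without SCR replicate 2 or any 1 of the siRNA replicates (adjusted p 0.0966 to 0.177). The interaction was 0.63 (SE 0.07, adjusted p = 0.000728), with the smallest p of all 525 genes, and was positive under all 7 scalings (0.21 to 1.12). *Dusp8* had low counts, between 35 and 116 barcode counts per sample. It was at 99.5, 97.4 and 113 normalized counts in AKT/NRAS SCR, at 106, 95.3 and 99.5 in AKT/NRAS siRNA, at 35.8, 49.3 and 39.0 in AKT Cre/NRAS SCR and at 64.7, 50.3 and 43.1 in AKT Cre/NRAS siRNA. The lines did not overlap, with log2 differences of -1.31 under SCR (SE 0.14, adjusted p = 3.09e-05) and -0.93 under siRNA (SE 0.14, adjusted p = 0.000653). The siRNA groups overlapped with SCR in both lines and no siRNA difference of *Dusp8* passed with the 15 reference genes (0.34, SE 0.17, adjusted p = 0.133 in AKT Cre/NRAS and -0.04, SE 0.09, adjusted p = 0.826 in AKT/NRAS), although the first passed under 2 of the 8 scalings.

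**Figure D2:**
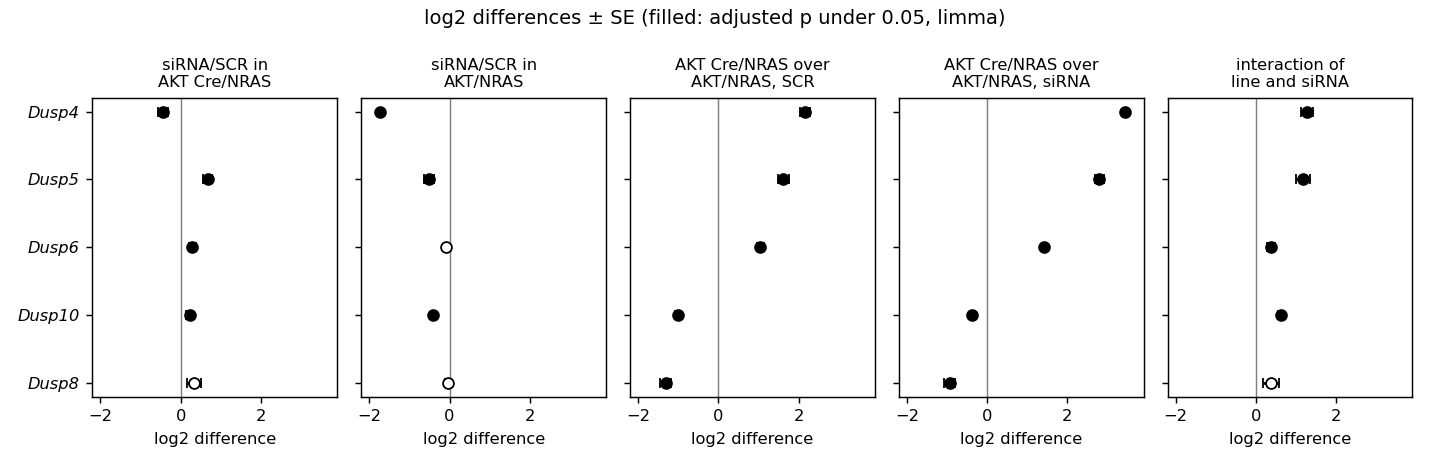
Log2 differences ± SE (x axis) of the 5 tested DUSP genes (y axis) in the 5 comparisons (panels), from limma fits with 3 samples per group. Filled points have an adjusted p under 0.05. *Dusp4* is to the left of 0 in both siRNA panels, *Dusp5* and *Dusp10* lie to the right of it in AKT Cre/NRAS and to the left in AKT/NRAS, and all 5 genes are filled in both panels of the lines.

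Read as a family, 5 of the 6 members could be tested. Between the lines all 5 passed, 3 higher and 2 lower in AKT Cre/NRAS, both under SCR, where 28.9% of all genes tested were higher and 48% lower, and under siRNA, where 36.6% were higher and 37.9% lower. The median log2 difference of the members was 1.05 under SCR and 1.42 under siRNA, beside -0.22 and -0.00053 for all genes tested. Under SCR 4 members passed with the values as deposited (all but *Dusp10*), and 4 with the 5 reference genes ranked first and with reference genes chosen within the comparison (all but *Dusp6*), while all 5 passed under siRNA with each of the 8 scalings. The balance over all genes under SCR moved with the scaling too, from 149 higher and 247 lower to 202 and 99 as deposited, 224 and 181 after re-centring on the median, and 59 and 259 with reference genes chosen within the comparison. With silencing in AKT Cre/NRAS 3 members rose (*Dusp5*, *Dusp6* and *Dusp10*) and 1 fell (*Dusp4*), where 40.6% of all genes tested rose and 5.37% fell, and the members' median of 0.29 was near that of all genes (0.23). The balance of rises and falls over all genes in this comparison moved with the scaling: 204 genes rose and 27 fell with the 15 reference genes, 32 rose and 136 fell after re-centring on the median, 53 rose and 40 fell after quantile normalization, 254 rose and 1 fell with the 5 reference genes ranked first, and 0 rose and 1 fell with the values as deposited. Correspondingly 1 member rose and 1 fell after re-centring, and 4 rose and none fell with the 5 reference genes. In AKT/NRAS no member rose and 3 fell (*Dusp4*, *Dusp5* and *Dusp10*), where 5.44% of all genes rose and 11.9% fell, and the median was -0.41 for the members and -0.03 for all genes. The same number of members fell under 7 of the 8 scalings, and 1 fell with the values as deposited, under which 287 genes rose and 3 fell in place of 27 and 59. *Dusp4* is the target of the siRNA, so its fall was set by the experiment and is not a trait of the family. Apart from it, *Dusp5* and *Dusp10* fell in AKT/NRAS with the 15 reference genes, while *Dusp6* and *Dusp8* did not pass. For the interaction, 4 members passed with a positive sign and none with a negative one, where 40.6% and 4.76% of 525 genes did so, and the median was 0.63 for the members and 0.25 for all genes. The target *Dusp4* is among these 4, beside *Dusp5*, *Dusp6* and *Dusp10*, and it also enters the medians of the members. With the values as deposited 2 genes had a positive and 30 a negative interaction, and no member passed. Both siRNA comparisons share their samples with the comparisons of the lines and with the interaction, so these counts are not independent of each other.

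**Figure D3:**
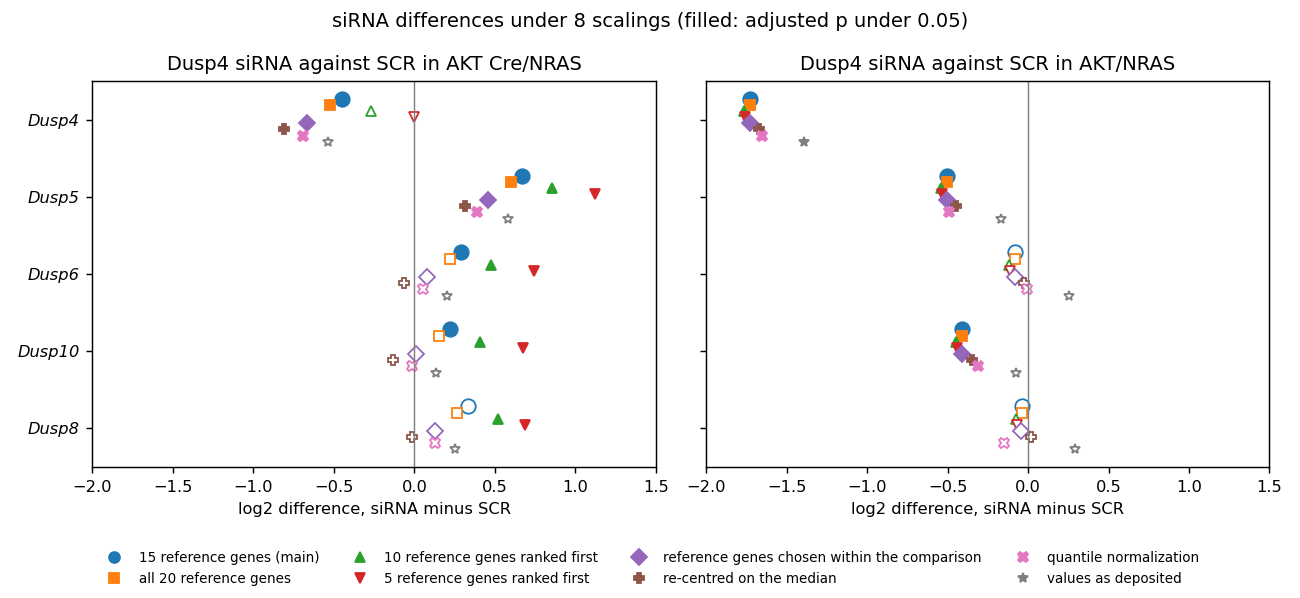
Log2 difference of siRNA minus SCR (x axis) for the 5 tested DUSP genes (y axis) under the 8 scalings (symbols), in AKT Cre/NRAS (left) and AKT/NRAS (right). Filled symbols have an adjusted p under 0.05. In AKT Cre/NRAS the *Dusp4* difference moves from -0.81 to 0.00098 with the scaling, and in AKT/NRAS it stays between -1.76 and -1.39.

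A ratio of 2 genes within a sample does not depend on how the sample was scaled, so the 6 pairs of *Dusp4*, *Dusp5*, *Dusp6* and *Dusp10* were also compared as log2 ratios. Each probe has its own efficiency, so only differences of a ratio between groups are read, not its level. With 3 samples against 3, the two-sided exact permutation test cannot go below a p of 0.1. That smallest p was reached by 22 of the 24 ratio comparisons (0.109 after Benjamini-Hochberg adjustment over the 24). It marks only that the groups did not overlap, and the share of all gene pairs without overlap was not determined. Of all single genes tested, 396 of 515 passed between the lines under SCR and 389 of 522 under siRNA. With silencing 231 of 503 passed in AKT Cre/NRAS and 86 of 496 in AKT/NRAS. These are shares past the threshold, not shares without overlap. Since the latter are not known, the 22 are not read as a trait of these genes. After silencing, *Dusp4* was lower relative to *Dusp6* in every sample of both lines. The log2 ratio was -0.43, -0.53 and -0.50 in AKT/NRAS SCR and -2.31, -2.02 and -2.07 in AKT/NRAS siRNA, and it was 0.74, 0.65 and 0.49 in AKT Cre/NRAS SCR and -0.15, -0.03 and -0.17 in AKT Cre/NRAS siRNA. The mean siRNA difference of this ratio was thus -1.65 in AKT/NRAS and -0.74 in AKT Cre/NRAS. Against *Dusp10* the *Dusp4* ratio differed by -1.32 in AKT/NRAS and by -0.68 in AKT Cre/NRAS, and against *Dusp5* by -1.22 and -1.12, in each case without overlap. A lower ratio does not say which of its genes moved: with the 5 reference genes ranked first, *Dusp4* differed by 0.00098 in AKT Cre/NRAS and *Dusp5*, *Dusp6* and *Dusp10* by 1.12, 0.74 and 0.68. *Dusp8*, with its low counts, was left out of the ratios. *Dusp5* went up relative to *Dusp6* in AKT Cre/NRAS (0.38) and down relative to it in AKT/NRAS (-0.43), with exact permutation p = 0.1 for each. The ratio of *Dusp6* to *Dusp10* overlapped between siRNA and SCR in AKT Cre/NRAS (0.07, exact permutation p = 0.5), and so did that of *Dusp5* to *Dusp10* in AKT/NRAS (-0.10, exact permutation p = 0.5). Between the lines the widest shift under SCR was that of *Dusp4* over *Dusp10*, at 3.18, followed by *Dusp5* over *Dusp10* at 2.65 and *Dusp6* over *Dusp10* at 2.07. Whether the siRNA difference of a ratio differed between the lines was not tested.

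**Figure D4:**
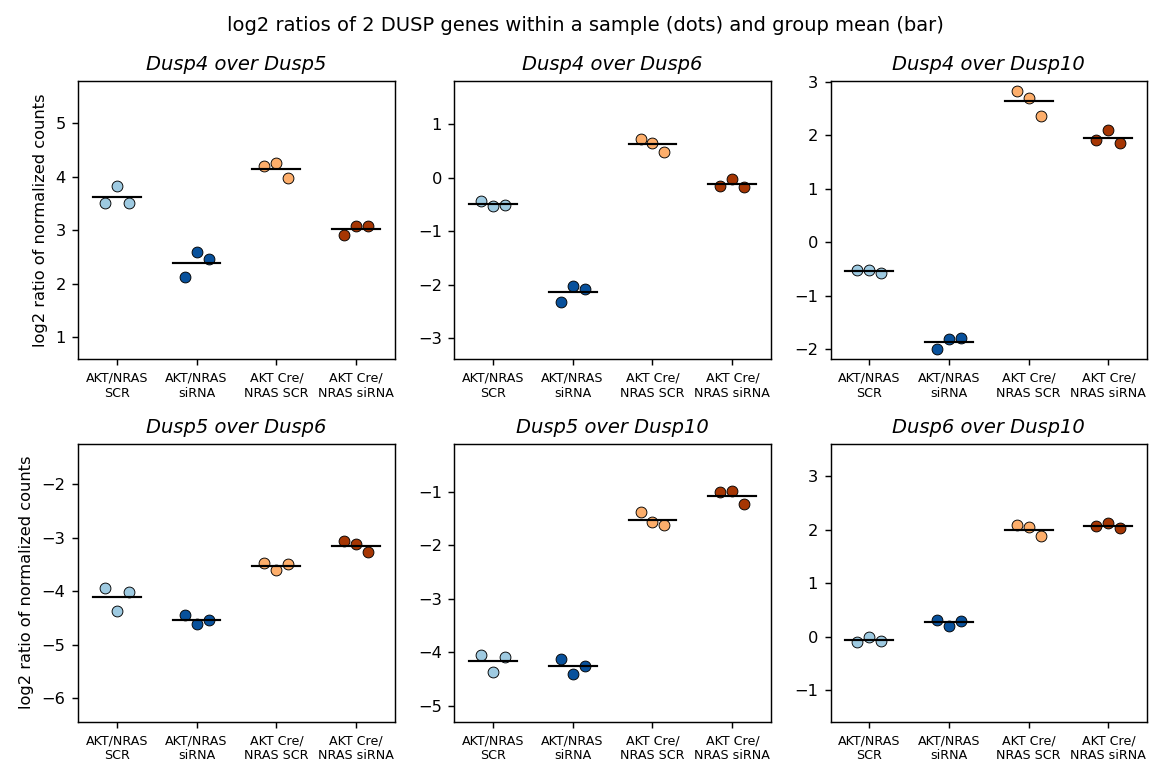
Log2 ratio of 2 DUSP genes within a sample (y axis, normalized counts, each panel spanning the same range) for the 6 pairs (panels) in the 4 groups (x axis), with each sample as a dot and the group mean as a bar. The 3 ratios with *Dusp4* on top are lower in every siRNA sample than in any SCR sample of the same line.

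The other genes of the pathway were taken from 4 lists. The Sprouty proteins, like the DUSPs, are ERK-induced inhibitors of the pathway, and 3 of them were measured. All 3 were higher in AKT Cre/NRAS under SCR, *Spry2* by 2.07 (adjusted p = 2.16e-07), *Spry4* by 1.62 (4.39e-06) and *Spry1* by 1.39 (4.69e-06) on the log2 scale, and all 3 again under siRNA, by 2.28, 2.18 and 1.16. These rises passed under all 8 scalings. Of all genes tested, 28.9% were higher under SCR and 36.6% under siRNA. With silencing, *Spry4* rose in AKT Cre/NRAS by 0.47 (adjusted p = 0.0141, past the threshold under 4 of 8 scalings), the 2 others did not pass, and none passed in AKT/NRAS. After re-centring on the median none of the 3 rose and 2 fell in AKT Cre/NRAS, and 1 rose in AKT/NRAS, as 1 did with the values as deposited. Of the MAP kinases themselves, which the DUSPs act on, 4 could be tested. *Mapk3*, which encodes ERK1, was lower in AKT Cre/NRAS under SCR by 1.02 (adjusted p = 0.000177), and so was *Mapk9* (JNK2) by 0.66 (0.000296), while *Mapk8* (JNK1) was higher by 0.48 (0.00211). The last of these was -0.04 with reference genes chosen within the comparison. After re-centring on the median 2 of this list were higher and 2 lower. Of all genes tested under SCR, 28.9% were higher and 48% lower, and after re-centring 224 of 520 were higher and 181 lower. With silencing in AKT Cre/NRAS *Mapk9* (0.47, adjusted p = 0.00656) and *Mapk3* (0.46, 0.0194) rose and *Mapk8* fell by 0.35 (0.0257), and none of the 4 passed in AKT/NRAS. After re-centring none of the list rose and 2 fell in AKT Cre/NRAS, and with the values as deposited all 4 rose in AKT/NRAS. Over all genes tested, 40.6% rose and 5.37% fell with silencing in AKT Cre/NRAS. After re-centring 32 of 510 rose there and 136 fell. In AKT/NRAS 5.44% rose and 11.9% fell, while 287 of 507 rose with the values as deposited and 47 of 490 after re-centring. Whether the Sprouty genes or the MAP kinases differ from the panel in these counts was not tested.

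Among the kinases upstream of the MAP kinases, 4 of 10 tested rose and none fell with silencing in AKT Cre/NRAS, a share near the 40.6% of all genes tested that rose. The 3 with the smallest p were *Map3k1* (0.55, adjusted p = 0.00738), *Map3k5* (0.48, 0.00791) and *Map2k4* (0.36, 0.0125), which encode kinases of the JNK and p38 branches. After re-centring on the median none of this list rose and 2 fell, where 32 of 510 genes rose and 136 fell. In AKT/NRAS 2 of 12 fell, among them *Map3k1* by 0.37 (adjusted p = 0.00816), where 11.9% of all genes tested fell. With the values as deposited 5 of this list rose there and none fell, where 287 of 507 genes rose and 3 fell. Between the lines under SCR 1 of 11 was higher and 6 lower, where 28.9% and 48% of all genes tested were, and the list's median log2 difference of -0.24 was near that of all genes (-0.22). Named by the smallest p were *Map2k6*, a p38 kinase kinase, higher by 1.22 (adjusted p = 4.92e-06), and *Map3k7* and *Braf*, lower by 1.15 (1.24e-05) and 1.12 (8.27e-06) on the log2 scale. After re-centring 4 were higher and 2 lower, where 224 of 520 genes were higher and 181 lower. *Map2k6* stayed higher (1.19) and *Map3k7* lower (-1.06) under siRNA.

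The transcription factors that ERK induces are an outlet of the same signal. With silencing 5 of 7 rose and none fell in AKT Cre/NRAS, where 40.6% of all genes tested rose and 5.37% fell. They were *Ets2* (0.55, adjusted p = 0.0061), *Fosl1* (0.53, 0.00738), *Klf4* (0.46, 0.00738), *Myc* (0.40, 0.0175) and *Etv4* (0.38, 0.0295). None of these passed after re-centring and none with the values as deposited. In AKT/NRAS, where 5.44% of all genes rose and 11.9% fell, none of the list rose and 5 of 7 fell, with *Fos* at -0.48 (adjusted p = 0.00816), *Fosl1* at -0.41 (0.00916), *Klf4* at -0.31 (0.00906) and *Ets2* at -0.26 (0.00161). None of the 7 passed there with the values as deposited. The interaction passed with a positive sign for 6 of 7 and with a negative sign for none, where 40.6% and 4.76% of all genes did so. That of *Etv4* was 0.35 and did not pass (adjusted p = 0.105). Since 4 AKT/NRAS samples were at the floor for *Etv4*, a fall in that line could hardly be seen. After re-centring 3 of 7 passed, all with a positive sign, where 50 of 524 genes had a positive interaction. Between the lines under SCR 3 were higher and 4 lower, where 28.9% of all genes tested were higher and 48% lower. *Etv4* was higher by 4.01 (adjusted p = 4.23e-08, with 2 AKT/NRAS SCR samples at the floor, so the difference may be larger) and *Fosl1* by 1.40 (7.42e-06), whereas *Jun* was lower by 3.40 (4.4e-08) and *Klf4* by 3.03 (4.4e-08) on the log2 scale. Under siRNA *Etv4* (4.37, with 2 AKT/NRAS siRNA samples at the floor), *Fosl1* (2.34) and *Myc* (0.91) were higher and *Jun* (-2.70) and *Klf4* (-2.26) lower.

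For each member above the floor, the nearest genes over the 12 samples were sought among the 445 other genes above the floor in all samples. Likeness was the root mean square (RMS) difference of the log2 values, each gene centred on its own mean. *Dusp5* varied by 1.15 (RMS of its own centred values) and was nearest to *Gata3* (0.18), *Fosl1* (0.21) and *Spry4* (0.24). *Dusp6* varied by 0.63 and was nearest to *Bcl2l1* (0.078), *Itga3* (0.12) and *Vegfb* (0.13). *Dusp4*, the silenced gene, varied most among the members, by 1.54. Its closest genes were *Socs2* (0.55), *Gata3* (0.58) and *Pdgfra* (0.61), with *Dusp5* at rank 5 (0.67). The distance is not scaled to the spread of a gene, so a gene that varies widely tends to stand far from the others. *Dusp10* varied by 0.39 and was nearest to *Gng12* (0.10), *Prkx* (0.13) and *Ifnar1* (0.14). *Dusp8* varied by 0.59 and was nearest to *Nfkbia* (0.16), *Braf* (0.17) and *Pdgfc* (0.18). All of these distances rest on the same 12 samples and the same scaling and mostly follow the difference between the lines.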

How the data were processed

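The authors hybridised total RNA of 12 samples to the NanoString® Mouse PanCancer Pathways panel and processed the counts in nSolver 4.0. The deposited table gives 1 signal for each probe. Above 20, which is the lowest signal listed, every signal is a whole barcode count multiplied by a factor of its sample, and the factors track the positive controls. The methods name a further normalization to automatically chosen reference genes, which the deposited signal does not carry. This step was rebuilt with geNorm over all 12 samples, which kept 15 of 20 reference genes (*Abcf1*, *Alas1*, *Edc3*, *Eif2b4*, *G6pdx*, *Hdac3*, *Hprt*, *Nubp1*, *Oaz1*, *Polr1b*, *Ppia*, *Rpl19*, *Sap130*, *Sdha* and *Tbp*). Values were raised to the highest scaled floor, 27.1, and a gene that no sample of a comparison held above it was left out there. The barcode counts under the floor are unknown, which precludes a count model.

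Values were tested as log2(value + 1) in R 4.3.3 by limma 3.58.1, whose eBayes step used an intensity trend, with Benjamini-Hochberg adjustment over all genes tested and 0.05 as the limit. Adjusted p values in the text come from limma unless another test is named beside them. A comparison was fitted on its own 6 samples, and the interaction on all 12. Plots were made in Python 3.11.15 with matplotlib 3.10.9. Table columns carry run numbers, which were matched to the run numbers in the sample titles. Between replicates of a group, recovered counts differed by a chi-square of 1.18 to 80.4 per degree of freedom, so no library repeated the counts of another. The lowest values were 1.18 for AKT/NRAS SCR replicates 2 and 3 and 1.29 for AKT/NRAS siRNA replicates 2 and 3. Such values are close to what counting noise alone gives, so the counts cannot tell whether these pairs hold spread between cultures. The highest was 80.4, for AKT Cre/NRAS SCR replicates 1 and 3. The depth per sample is the total of recovered counts, given with the results. Replicates are called biological by the methods, and p values measure the spread between these samples.

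The members and gene lists were chosen with earlier results of these data known, and so was the choice of reference genes, so neither is independent evidence of a direction. The rule for naming genes took the 6 members, per list the 3 genes with the smallest p and *Spry2*, *Spry4*, *Mapk3*, *Etv4*, *Fosl1* and *Myc*, and the 3 nearest genes of each member. Of the list genes, values are given where they passed the threshold, and some are not reported here although the counts include them. *Akt1* and the *Rpl19* to *Polr2a* ratio were singled out after their values were seen.

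Same-numbered replicates deviated together in the AKT Cre/NRAS siRNA comparison (r = 0.22, 0.12 and 0.23 over genes). Between the lines under siRNA the values were 0.21, 0.03 and 0.16. In the remaining comparisons they ran from -0.08 to 0.007. The replicate block was therefore run as an alternative, with 7 other scalings, another pseudocount, other filters, floors, adjustments and models, and each library left out.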

Additional observations from a re-analysis of the deposited data

Results flagged for a closer look

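The siRNA difference differed between the lines, by limma's interaction test, for 4 members and 11 other pathway genes. *Dusp4* had an interaction of 1.28 on the log2 scale, from differences of -0.45 in AKT Cre/NRAS and -1.73 in AKT/NRAS. *Dusp5* had 1.17, from 0.67 and -0.50, so it moved in opposite directions. *Dusp10* had 0.63, from 0.22 and -0.41, again in opposite directions, although the rise did not hold under every scaling. *Dusp6* had 0.37, from 0.29 and -0.08, of which the latter did not pass.

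Of the transcription factors, *Fosl1* (0.94), *Ets2* (0.81), *Klf4* (0.77) and *Myc* (0.51) had a positive interaction, and so had the kinases *Map3k1* (0.92), *Mapk9* (0.51), *Mapk3* (0.49), *Map3k5* (0.47) and *Map2k4* (0.41) and the inhibitor *Spry4* (0.56). *Mapk8* had a negative one (-0.37). A positive interaction was common on the panel, as the shares in the results show, and the balance of signs among the genes that passed moved with the scaling: 213 genes were positive and 25 negative with the 15 reference genes, and 50 and 151 after re-centring on the median. Of the 15 genes named here, *Dusp6*, *Map2k4* and *Mapk8* changed sign under at least 1 of the 7 scalings, and each passed under 4. *Spry4*, *Mapk3*, *Mapk9*, *Map3k5* and *Myc* kept their sign but also passed under only 4. Their lowest values were 0.14, 0.066, 0.088, 0.045 and 0.088, in that order. *Dusp4*, *Dusp5*, *Dusp10*, *Fosl1*, *Ets2*, *Klf4* and *Map3k1* passed under 6.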

How the results depend on the processing

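Between the lines, all 5 tested members kept their direction and call with any library left out. Under silencing in AKT Cre/NRAS the number of members called, 4, fell to 0 in limma with the values as deposited (2 at an unadjusted p under 0.05) and with a linear model of each gene by itself (4 unadjusted), to 1 without a filter on low values and with Benjamini-Yekutieli adjustment, and to 2 with all 20 reference genes, re-centring, quantile normalization or reference genes chosen within the comparison. It ranged from 1 to 4 with a library left out. The *Dusp4* difference there was -0.54 as deposited, -0.27 with the 10 and 0.00098 with the 5 reference genes ranked first. It stayed at -0.45 without a filter (adjusted p = 0.106), with Benjamini-Yekutieli adjustment (0.121) and in the linear model (0.114), and it ranged from -0.60 to -0.35 with a library left out. With the values as deposited 1 member was called in AKT/NRAS and 0 for the interaction (2 at an unadjusted p under 0.05).

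Directions turned as follows. With the values as deposited *Dusp6* and *Dusp8* became 0.25 and 0.29 in AKT/NRAS and -0.049 and -0.042 for the interaction, *Ets2* and *Klf4* became 0.075 and 0.023 in AKT/NRAS, and *Map2k4* became -0.015 for the interaction. After re-centring *Dusp6*, *Dusp10* and *Dusp8* became -0.064, -0.13 and -0.012 in AKT Cre/NRAS, *Dusp8* became 0.018 in AKT/NRAS, and *Dusp6*, *Dusp8* and *Map2k4* became -0.039, -0.030 and -0.0053 for the interaction. Quantile normalization gave -0.014 for *Dusp10* in AKT Cre/NRAS, and with a library left out *Dusp8* in AKT/NRAS ranged from -0.079 to 0.024, the latter without SCR replicate 3. With the 5 reference genes ranked first *Mapk8* was 0.10 in AKT Cre/NRAS and 0.11 for the interaction and *Myc* -0.023 between the lines under SCR, where reference genes chosen within the comparison gave -0.12 for *Myc* and -0.040 for *Mapk8*. The cause of these changes was not tested beyond the scaling itself. Over all alternatives and comparisons, 477 of 545 member values and 237 of 240 ratios kept direction and call or size. Of the other member values 50 were weaker, 13 reversed and 5 stronger. Most of these changes were in the siRNA comparison in AKT Cre/NRAS, so the pooled share does not describe that comparison. The scale factor of a sample cancels in a ratio, so the share for ratios does not bear on the choice of reference genes.

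The number of genes called in AKT Cre/NRAS was 231 with the main settings, and 1 as deposited, 93 after quantile normalization, 100 with reference genes chosen within the comparison, 56 without a filter, 70 with Benjamini-Yekutieli adjustment, 0 in the linear model (211 at an unadjusted p under 0.05) and 99 to 297 with a library left out. In AKT/NRAS it was 86, and 290 as deposited, 45 without a filter, 10 with Benjamini-Yekutieli adjustment, 26 in the linear model, 23 in 1 fit over all 4 groups and 39 to 92 with a library left out. For the interaction it was 238, and 32 as deposited and 101 with Benjamini-Yekutieli adjustment. Of the 12 pathway genes named for silencing in AKT Cre/NRAS, 5 kept their call with each library left out in turn, and 5 of 5 did so in AKT/NRAS, 14 of 14 under SCR and 13 of 13 under siRNA between the lines, and 9 of 11 for the interaction. With the replicate block 4 members were called in AKT Cre/NRAS, with *Dusp4* at an adjusted p of 0.000821, and 3 in AKT/NRAS; the block changed no other call of a member. Counts of 35 to 116 barcodes limit what can be seen for *Dusp8*.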
